A study of Mus musculus with 6 samples.

Results

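The transcripts of 10 inhibitory and paired receptor genes (Cd200r3, Cd200r1, Cd200, Cd300a, Cd300lf, Pirb, Cd33, Siglece, Fcgr2b and Milr1) were followed in the mouse mast cell line MC/9. They were taken by gene symbol from a count table of 49568 genes, and all 10 symbols were found. The table holds 3 control libraries, labelled as given no treatment, and 3 libraries labelled as rPTH at 10 nM for 24 h. The series' design text describes mast cells placed on the mouse osteoblast line 7F2, exposed to rPTH there and then collected; the labels leave unsaid if controls were grown on osteoblasts too. All libraries come from the same mast cell line, and the labels do not spell out rPTH, taken here to mean a parathyroid hormone preparation.

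Mast cells carry receptors that lower the response to IgE and antigen. Many of them hold an immunoreceptor tyrosine-based inhibitory motif (ITIM) in the cytoplasmic tail; once its tyrosine is phosphorylated it recruits the phosphatases SHP-1 and SHP-2 (Ptpn6, Ptpn11) or SHIP-1 (Inpp5d). Paired receptors are close relatives in which one form inhibits and another activates, the activating form having a short tail and a basic residue in the membrane that binds an adaptor such as DAP12 (Tyrobp) or the Fc receptor gamma chain (Fcer1g). Cd200r1 inhibits without an ITIM: an NPxY motif in its tail binds the adaptors Dok2 and Dok1. Cd200r3 is the activating relative of Cd200r1 on mast cells and basophils, and Cd200 is the ligand of Cd200r1. Cd300a and Cd300lf bind membrane lipids such as phosphatidylserine, Pirb binds MHC class I, Cd33 and Siglece bind sialic acid, Fcgr2b is the inhibitory IgG receptor, and Milr1 (Allergin-1) inhibits IgE signalling.

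The coding sequences of these receptors show how they divide. The stretches around the motif tyrosines are given because they separate the ITIM receptors from Cd200r1 and Cd200r3. They were read from GENCODE M21 transcripts (GRCm38), 5′ to 3′ on the coding strand, with the tyrosine codon in capitals and codons counted from the start codon. The first was found with the NPxY motif and the others with the ITIM.
Cd200r1, codon 297: aagagcaatccactcTATgatact
Cd300a, codon 262: gaagtggtggaaTATagcacattggcatta
Cd300a, codon 274: gaagagcttcacTATtcatccgtggcattc
Cd300lf, codon 241: ggtgatctctgtTATgcagacctgtccctg
Cd300lf, codon 289: gaggaggtttcaTATgccgctctgactttg
Pirb, codon 713: gaagaaagcctaTATgcttcagtggaggac
Pirb, codon 794: caggatgtgaccTATgcccagctgtgcagc
Pirb, codon 824: gagcccagtgtaTATgctactctggcggct
Siglece, codon 432: gaagagatacatTATgcgaccctcagcttt
Fcgr2b, codon 319: aatacgatcaccTACtcacttctcaagcat
After the most hydrophobic window of 19 codons, taken as the membrane segment, Cd200r3 had 14 codons left and Cd200 had 21, with neither motif in either. Cd200r1 had 65 codons after the window, Fcgr2b 99, Cd300a 114, Cd300lf 127 and Pirb 179, and Siglece 95. Cd33 (135 codons) and Milr1 (79 codons) had long tails with no match in the transcript used, which says only that these letters are not in that stretch. The window held 1 lysine or arginine codon in Cd200r3, Cd200r1 and Cd33 and 0 in the other 7 genes. These are matches in sequence, and the counts do not show which of the 9 coding transcripts considered for Cd200r3, or of those of the other genes, was made.

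The genes lie in families along the genome. In GENCODE M21 on GRCm38, Cd200r1 spans chromosome 16 from 44765736 to 44794978, Cd200r3 from 44943678 to 44981380 and Cd200 from 45382135 to 45409053. Cd300a lies on chromosome 11 from 114890041 to 114904654, Cd300lf from 115116214 to 115133992 and Milr1 from 106751226 to 106768794. Pirb lies on chromosome 7 from 3711409 to 3720391, Cd33 from 43524216 to 43544428 and Siglece from 43651070 to 43660161. Fcgr2b spans chromosome 1 from 170958617 to 170976547. On the other strand Cd300lf overlaps Rab37, Milr1 overlaps Polg2 and Gm25889, and Fcgr2b overlaps Gm38204; no source used here states whether strand was used in counting, and reads of these partners cannot be told apart. Close copies also matter: 37.3% of the 50-base stretches of the Pirb transcript occur in transcripts of other genes, Pira2 and Gm14548 among them, so the Pirb count is uncertain. The share was 8.6% for Fcgr2b (most with Fcgr3), 6.7% for Cd300lf, 3.59% for Cd300a, 2.17% for Cd200r1 and 0% for Cd200r3, Cd200, Cd33 and Siglece.

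Library totals ran from 22282095 to 24993606 counts in controls and from 30623648 to 33577977 with rPTH, so a count of 0 allows up to 3 counts, or 0.0893 to 0.135 CPM (counts scaled to a common library total), for counting error only. Levels below are CPM scaled by edgeR's TMM factors, with a factor of 0.81 for control 1 and of 1.03 to 1.06 for all others. Values of the cell type markers are the exception: they are plain CPM throughout, without these factors. Control 1 lay away from the rest along the leading principal component, which held 53.1% of the variance. The labels do not say whether replicates were separate cultures; p-values then reflect the spread among these libraries alone, which may be technical. As a sum, mast cell markers were abundant in every library. The 17 genes summed to 7986 to 8587 plain CPM in controls and 6866, 8995 and 8693 CPM in rPTH 1, 2 and 3. The highest were Cpa3 (mean 1980 CPM), Fcer1a (1469 CPM) and Gata2 (1019 CPM). Of the 17, 3 averaged under 1 CPM: Mcpt4, Mrgprb1 and the connective tissue type receptor Mrgprb2, which had 0 counts throughout. Of 19 macrophage and monocyte markers 15 averaged under 1 CPM, and the list summed to 22.8 to 34.4 CPM in controls against 26.1 to 30.1 CPM with rPTH. The 9 T and NK cell markers summed to 0.44 to 0.784 CPM over all libraries and the 13 granulocyte markers to 5.36 to 11.9 CPM in controls, against 5.81 to 7.62 CPM with rPTH. The 8 B cell markers summed to 5.33 to 12.7 CPM in controls, against 13.4 to 21.9 CPM with rPTH, nearly all of it Ebf1, which stromal cells also express (mean 12.8 CPM, against 0.14 CPM for Cd79a). The 25 osteoblast and stromal markers summed to 2065 to 2325 CPM in controls, against 3003 to 4589 CPM with rPTH. Of these, 7 averaged under 1 CPM: Sp7, Bglap, Bglap2, Ibsp, Dcn, Lum and Thy1. The highest were Fn1 (mean 607 CPM), Spp1 (597 CPM) and Bgn (551 CPM). The library rPTH 1 had both the lowest mast cell sum and the highest stromal sum (4589 CPM). Fewer cells of a type and less RNA per cell cannot be told apart in such libraries.

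Of the 10 genes, 8 were detected well enough to be tested and they differed widely in level. Per kilobase of exon, Cd300a (mean 20.9 CPM per kb over 6 libraries), Cd200r3 (18 CPM per kb) and Pirb (12.1 CPM per kb) were highest. Cd200r1 (9.52 CPM per kb) and Cd300lf (4.36 CPM per kb) followed, then Fcgr2b (1.92 CPM per kb) and Milr1 (1.42 CPM per kb). Cd33 was at 0.101 CPM per kb. The order of neighbours was the same in all 6 libraries except that Cd300a exceeded Cd200r3 in 4 of 6 and Fcgr2b exceeded Milr1 in 5 of 6. The ranges of these pairs overlapped between libraries, as did those of Pirb and Cd200r1. With the median length of a gene's transcripts in place of its exons, a length chosen after seeing the data, Cd200r3 stood first at 84 CPM per kb and Cd300a next at 21.3. The annotated exons of Cd200r3 cover 5984 bases but its median transcript only 1281, so its rank against Cd300a depends on the isoform made.

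**Figure D1:**
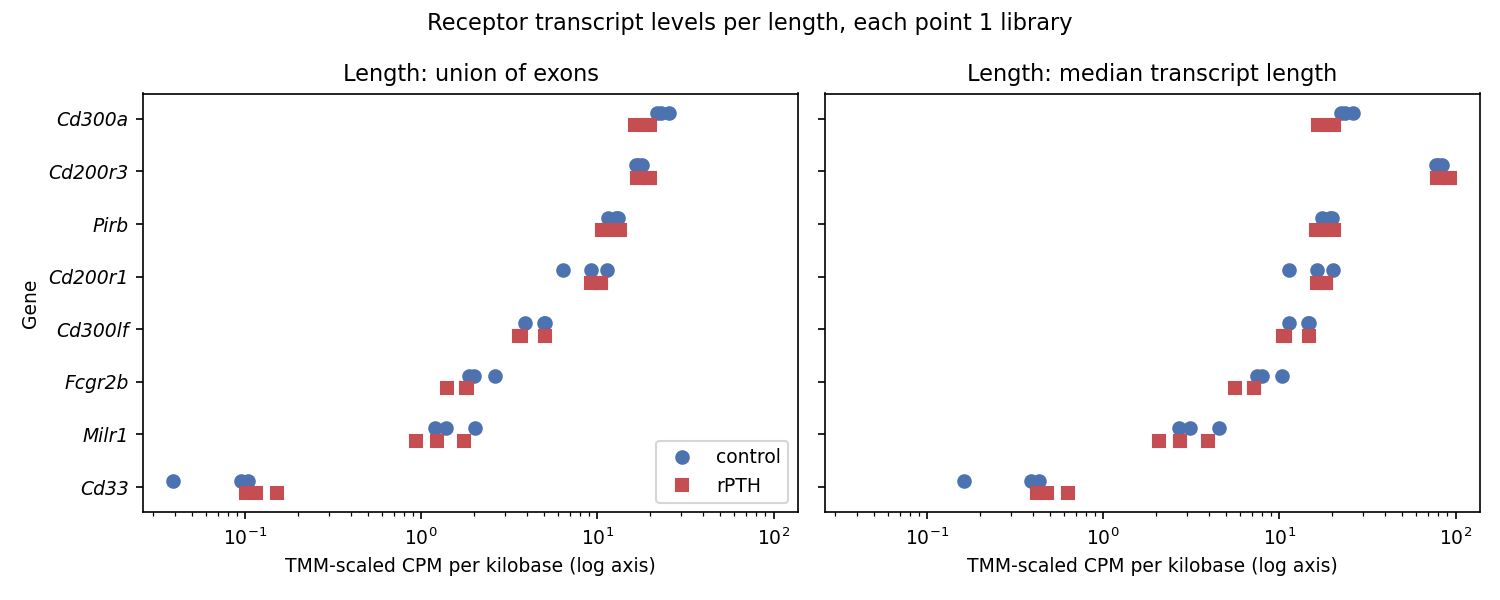
Level of the 8 tested receptors in TMM-scaled CPM per kilobase (log axis), each point 1 library, controls as circles and rPTH as squares, with exon union length on the left and median transcript length on the right. Cd200r3 moves from 18 to 84 CPM per kb with the change of length, while Cd33 is lowest in both panels.

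No receptor passed the test between rPTH and control: with edgeR's quasi-likelihood test, 0 of the 8 tested receptors had an adjusted p under 0.05 (Benjamini-Hochberg over 16696 genes; 0% of all tested genes passed). Their adjusted p ran from 0.619 to 0.847. Without adjustment, 0 of the 8 had p under 0.05 in edgeR, 1 in DESeq2 and 1 in limma-voom (Cd300a in both), against 7.87% of all tested genes in edgeR, 11% in DESeq2 and 5.17% in limma-voom. DESeq2 gave 5 genes of the whole table an adjusted p under 0.05, none of them among the 8 tested receptors, and limma-voom 0. The median log2 fold change was -0.12 over the 8 receptors and -0.09 over all tested genes, and 3 of the 8 lay above 0. In the authors' deposited table the smallest adjusted p of the 10 genes was 0.614, for Cd300a (log2 fold change -0.27), and Cd200 and Siglece had none.

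The activating receptor Cd200r3 had 107, 102 and 99 CPM in control 1, 2 and 3, against 100.4, 118 and 119 CPM for rPTH 1, 2 and 3, from 2109 to 4255 counts. The groups overlapped, since rPTH 1 lay among the controls. Its means were 103 ± 3.89 and 113 ± 10.5 CPM (SD, n = 3 each), and its log2 fold change was 0.13 with a 95% interval from -0.22 to 0.49 (edgeR adjusted p = 0.725). The sign turned with the length and GC trend removed (-0.16, and -0.13 with a replicate block as well). The inhibitory Cd200r1 had 21.4, 30.9 and 38.2 CPM in controls, against 30.8, 35 and 35 CPM with rPTH. Control 1 was lowest and control 3 highest, so the controls spanned all the rPTH libraries. The log2 fold change was 0.16 (interval -0.39 to 0.71, edgeR adjusted p = 0.783), -0.05 without control 1 and 0.44 without control 3. The ligand gene Cd200 had 1, 0 and 3 counts in controls and 0 in each rPTH library, all within the floor of 3 counts per library, so no fold is given. The rPTH libraries, with 0 Cd200 counts, held 3003 to 4589 plain CPM of osteoblast and stromal markers, and the controls 2065 to 2325 CPM.

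Cd300a, an ITIM receptor for phosphatidylserine, was lower in every rPTH library than in every control. Control 1, 2 and 3 had 121, 104 and 109 CPM, against 77.3, 94.2 and 87.4 CPM for rPTH 1, 2 and 3. Group means were 111 ± 9.13 and 86.3 ± 8.53 CPM (SD, n = 3 each), 0.774 times as high with rPTH. Its lowest level was in rPTH 1, the library with the lowest mast cell and highest stromal marker sums. Without that library the log2 fold change was -0.30 and the groups still did not overlap. In that setting 10.6% of all tested genes did not overlap with rPTH lower, and 20% in either direction. In plain CPM, both marker sums of rPTH 2 and 3 lay above every control. Those sums lack the TMM factors (0.81 for control 1), so they are not on the scale of the Cd300a levels given here. The part of cell content in the Cd300a difference was not tested. The log2 fold change of -0.37 had an interval from -0.74 to 0.00106 and an edgeR adjusted p of 0.619, so the difference did not pass. Leaving out single libraries kept it between -0.44 and -0.28, and over all 17 alternatives it lay below 0 (-0.67 to -0.23), with an adjusted p from 0.4 to 0.922. Scaled by library totals alone it was -0.23 and the groups overlapped. With the dependence on gene length and GC taken out per library it was -0.38 using exon length and -0.67 with median transcript length, the latter chosen after seeing the data.

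Cd300lf, its ITIM-bearing neighbour on chromosome 11, had 20.1, 25.5 and 25.9 CPM in controls, against 18.6, 18.9 and 25.8 CPM with rPTH. The groups overlapped through rPTH 3 alone (log2 fold change -0.17, interval -0.65 to 0.31, edgeR adjusted p = 0.733). Without rPTH 3 it was -0.34 and without control 3 it was -0.03. Pirb, the ITIM receptor for MHC class I, had 51.4, 57 and 58.4 CPM in controls, against 47.5, 51.3 and 59.7 CPM with rPTH, with rPTH 3 the highest of all. Its log2 fold change of -0.07 had an interval from -0.45 to 0.30 (edgeR adjusted p = 0.847). The sign of Pirb differed between alternatives: it was 0.04 with library totals alone and 0.05 without control 3.

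Fcgr2b, the inhibitory IgG receptor, had 11.6, 10.9 and 15.2 CPM in controls, against 8.15, 10.5 and 10.4 CPM with rPTH. All rPTH libraries lay below all controls, but rPTH 2 and control 2 differed little, and control 3 stood high. Group means were 12.6 ± 2.32 and 9.7 ± 1.35 CPM (SD, n = 3 each) and the log2 fold change -0.37 (interval -0.89 to 0.14, edgeR adjusted p = 0.628). Without control 3 the log2 fold change was -0.12 and the groups overlapped. Without rPTH 1, again the lowest library and the one with the lowest mast cell marker sum, it was -0.26 and they did not. In that last setting 10.6% of all tested genes did not overlap with rPTH lower. Across single left-out libraries the log2 fold change of Fcgr2b ran from -0.47 to -0.12. Cd300a and Fcgr2b were the 2 of 8 tested receptors whose groups did not overlap, in both with rPTH lower; over all tested genes 8.45% did not overlap with rPTH lower and 16.8% in either direction.

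Milr1, which lowers IgE signalling, had 5.01, 3.44 and 2.98 CPM in controls, against 2.31, 4.34 and 3.02 CPM with rPTH, from 69 to 150 counts. The groups overlapped in part, with control 1 highest and rPTH 1, low in mast cell markers, lowest (log2 fold change -0.24, interval -1.05 to 0.58, edgeR adjusted p = 0.779). Without control 1 the log2 fold change of Milr1 was 0.00 (-0.0021), without rPTH 1 it was -0.05 and without rPTH 2 it was -0.51. Cd33, a sialic acid-binding receptor, had only 6, 21 and 17 counts in controls and 25, 41 and 32 with rPTH. In CPM these were 0.304, 0.812 and 0.734 in controls and 0.792, 1.19 and 0.896 with rPTH, so rPTH 1 lay just under control 2. The log2 fold change of 0.62 had a wide interval, from -0.42 to 1.66 (edgeR adjusted p = 0.635); without control 1, the lowest library, it was 0.30. Siglece, the other sialic acid receptor, had 1 count in control 3, 1 count in rPTH 3 and 0 in the other 4 libraries, so no difference was detectable at this depth.

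**Figure D2:**
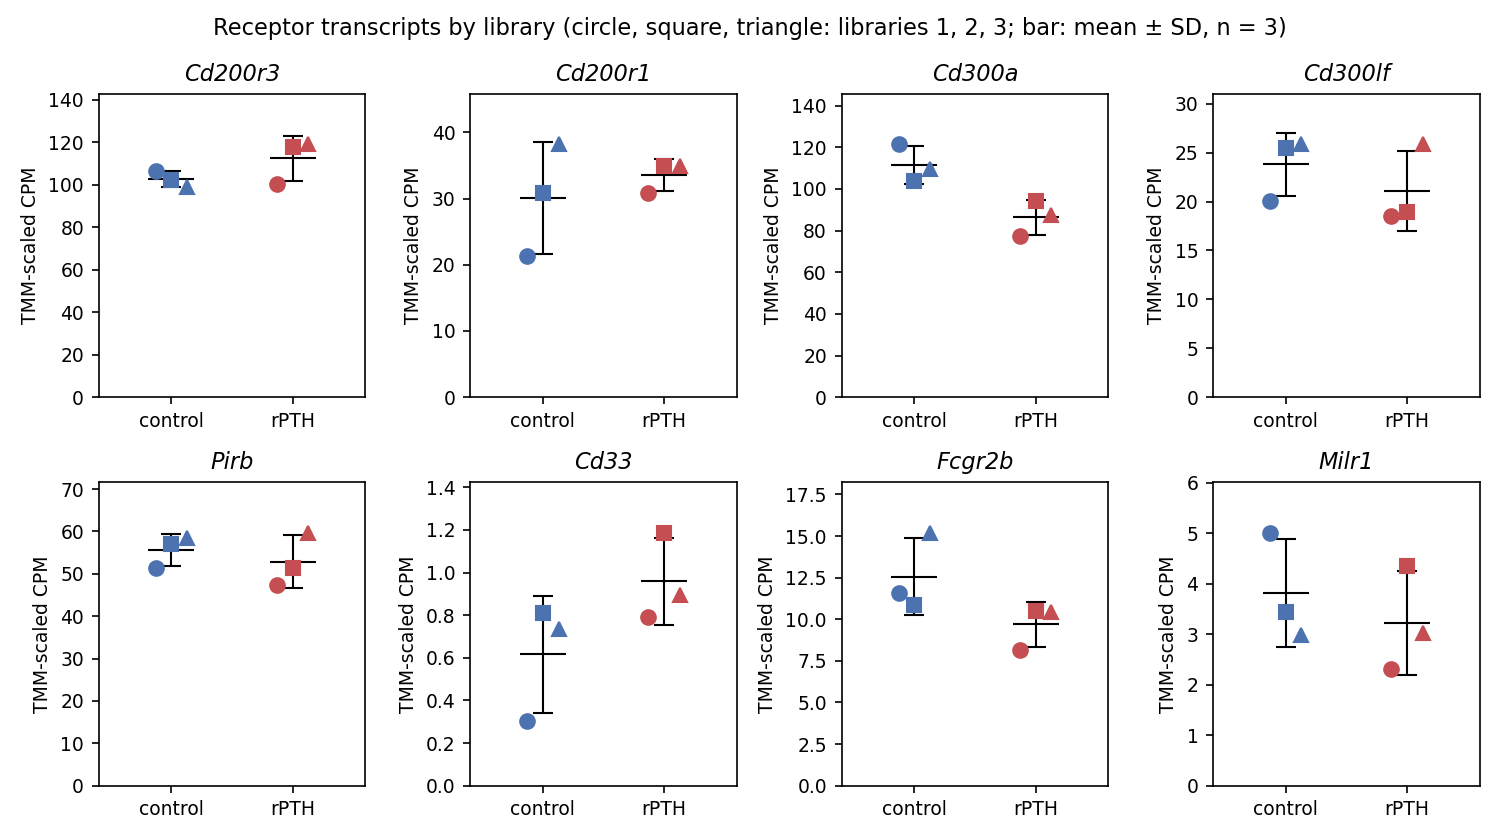
TMM-scaled CPM of the 8 tested receptors in each library, with linear axes from 0; bars give the mean ± SD of 3 libraries. The rPTH points of Cd300a (77.3 to 94.2) and Fcgr2b (8.15 to 10.5) all lie below the controls, and the other 6 panels overlap.

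**Figure D3:**
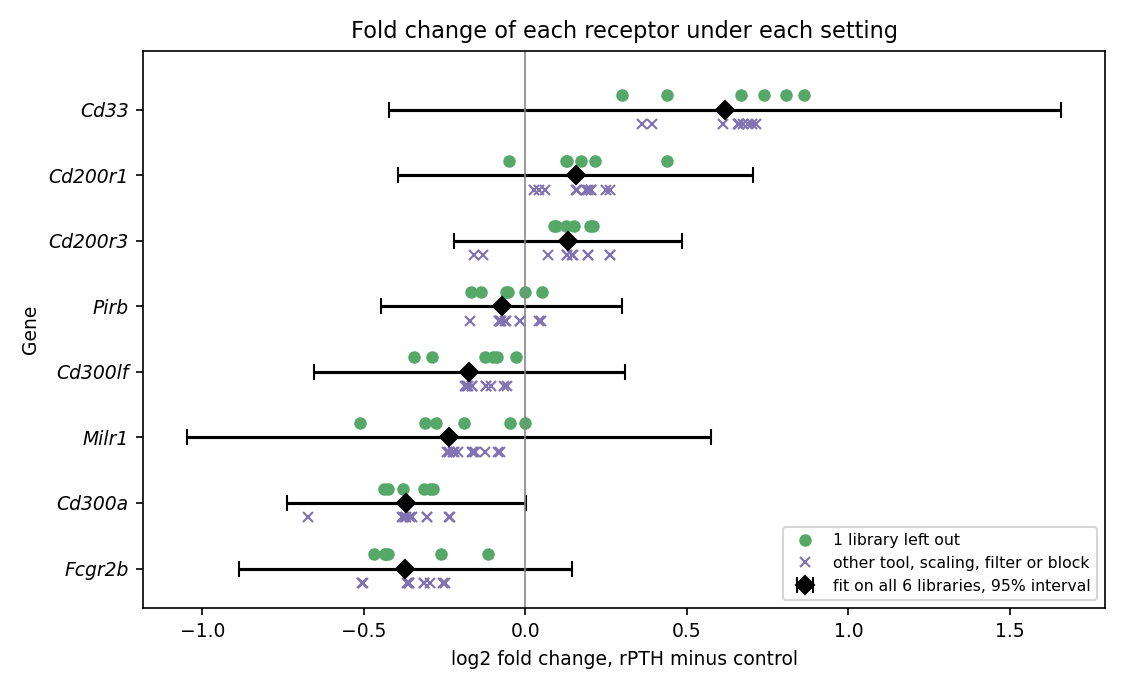
Log2 fold change (rPTH minus control) of each tested receptor: diamonds with 95% intervals from all 6 libraries, circles with 1 library left out, crosses for the other settings. All intervals include 0, that of Cd300a ending at 0.00106; Cd200r3, Cd200r1 and Pirb have points on both sides of 0.

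The ratio of receptors' counts within a library does not depend on how libraries are scaled. These ratios were chosen after seeing the data and are described without a test. Per Cd300a count, control 1, 2 and 3 had 0.878, 0.987 and 0.905 Cd200r3 counts, against 1.3, 1.25 and 1.36 for rPTH 1, 2 and 3. The groups did not overlap and each was tight, at 0.923 ± 0.0563 in controls and 1.3 ± 0.0558 with rPTH (SD, n = 3 each). In every control Cd300a thus had more counts than Cd200r3, and in every rPTH library fewer. The ratio of Cd200r1 to Cd300a ran from 0.176 to 0.35 in controls and from 0.371 to 0.4 with rPTH. Against Fcgr2b, Cd200r3 had a ratio of 6.51 to 9.41 in controls and 11.2 to 12.3 with rPTH, and Cd200r1 one of 1.84 to 2.84 and 3.33 to 3.79. Both CD200 receptors were therefore higher relative to both Cd300a and Fcgr2b in the rPTH libraries, while the relatives themselves overlapped (Cd200r3 to Cd200r1, 2.59 to 5 in controls and 3.26 to 3.41 with rPTH).

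Of the 28 pairs among the 8 tested receptors, 9 (32.1%) did not overlap between the groups: these 4 and 5 that contain the sparse Cd33. Over all pairs of tested genes the share was 17.9%; the 28 pairs share genes, so they are not 28 separate observations. The log2 difference of the Cd200r3 to Cd300a ratio was 0.50 from the counts, 0.22 after removal of the length and GC trend with exon length, and 0.74 with median transcript length. The 4 ratios of a CD200 receptor kept rPTH on the higher side in both of these settings (0.22 to 0.74 on the log2 scale), but their size depended on the length given to each gene. Length and base composition moved with the libraries, and their part in these ratios was not tested further.

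**Figure D4:**
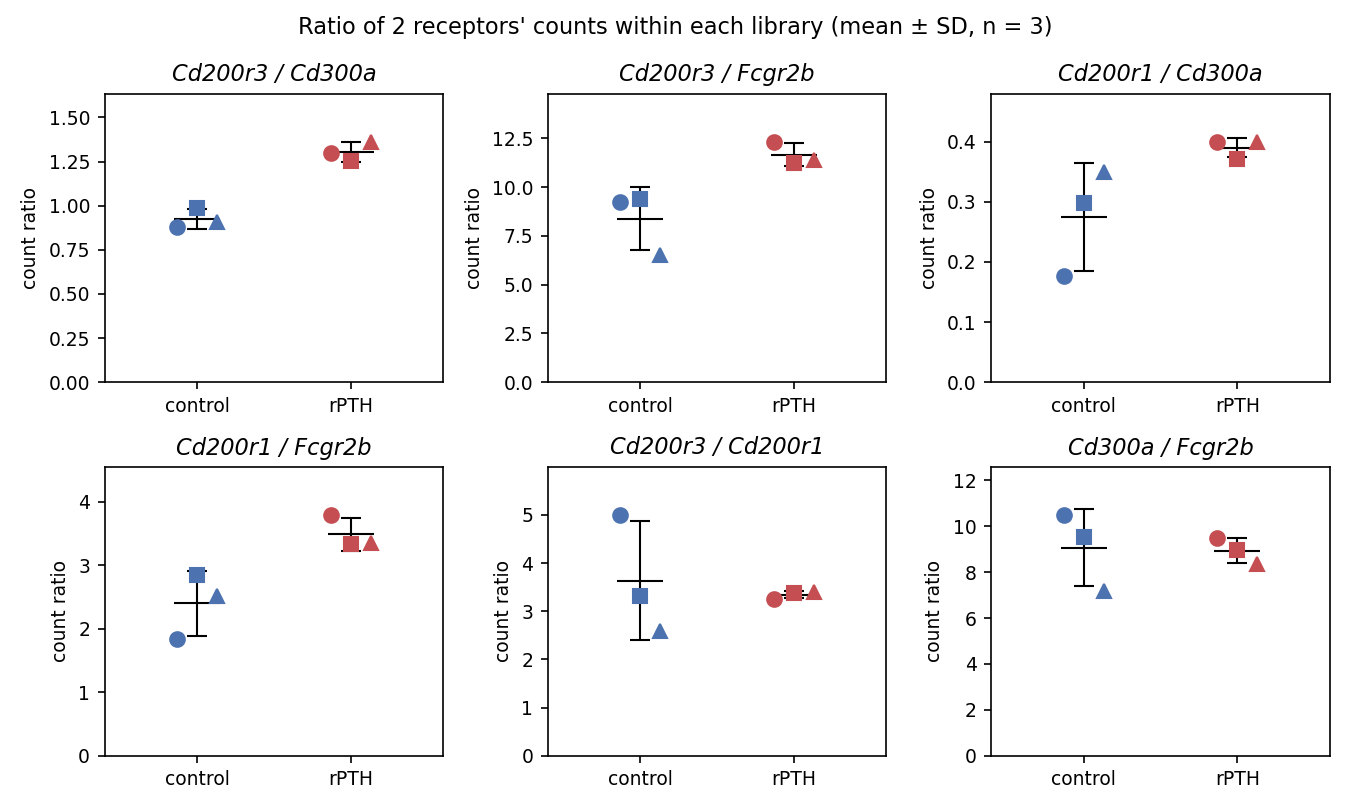
Ratio of the counts of 2 receptors within each library, linear axes from 0, bars giving the mean ± SD of 3 libraries per group; circle, square and triangle are libraries 1, 2 and 3. The first 4 ratios, of Cd200r3 or Cd200r1 to Cd300a or Fcgr2b, do not overlap between the groups, and the last 2 do.

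The wider receptor families were read from a list of 66 symbols, some of them alternative names, of which 51 were in the table and 29 tested. Lilrb4a, an ITIM receptor of the same superfamily as Pirb, was the highest of them, at 735 ± 80.6 CPM in controls, against 667 ± 108 CPM with rPTH (SD, n = 3 each). Cd200r4, a further activating relative of Cd200r1, had 180 ± 13.7 and 207 ± 21 CPM, or 1.59 to 1.98 counts per Cd200r3 count in every library. Fcgr3, the activating IgG receptor that shares its ligands with Fcgr2b, had 151 ± 35.4 and 117 ± 17.6 CPM. It had 8.14 to 16.5 counts per Fcgr2b count in controls and 11.5 to 12.7 with rPTH, so the balance of the activating and inhibitory IgG receptors overlapped between the groups. Siglecg, at 5.36 ± 2.41 and 6.23 ± 2.18 CPM, was the Siglec of this list that passed the low-count filter.

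Of these 29 receptors 0 passed in edgeR and 0 had an unadjusted p under 0.05 (DESeq2 and limma-voom passed 0 as well). The median log2 fold change was -0.01, with 14 above 0. The groups did not overlap for Tigit, higher with rPTH (1.85 ± 0.74 and 2.67 ± 0.27 CPM), and for Pilrb2 and Fcgr1, lower with rPTH; 3 of 29 is below the 16.8% of all tested genes. Fcgr1, the high-affinity IgG receptor, had 24.4 ± 6.13 and 17.9 ± 2.53 CPM (log2 fold change -0.45, edgeR adjusted p = 0.628). The activating receptors Pilrb2 (30.1 ± 7.68 and 22.4 ± 2.49 CPM) and Pilrb1 (29.3 ± 9.76 and 21.4 ± 1.57 CPM) had log2 fold changes of -0.42 and -0.45. With the length and GC trend removed by median transcript length these were 0.0426 and 0.0323. Without control 1 they were -0.20 and -0.16, and that of Fcgr1 was -0.23.

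**Figure D5:**
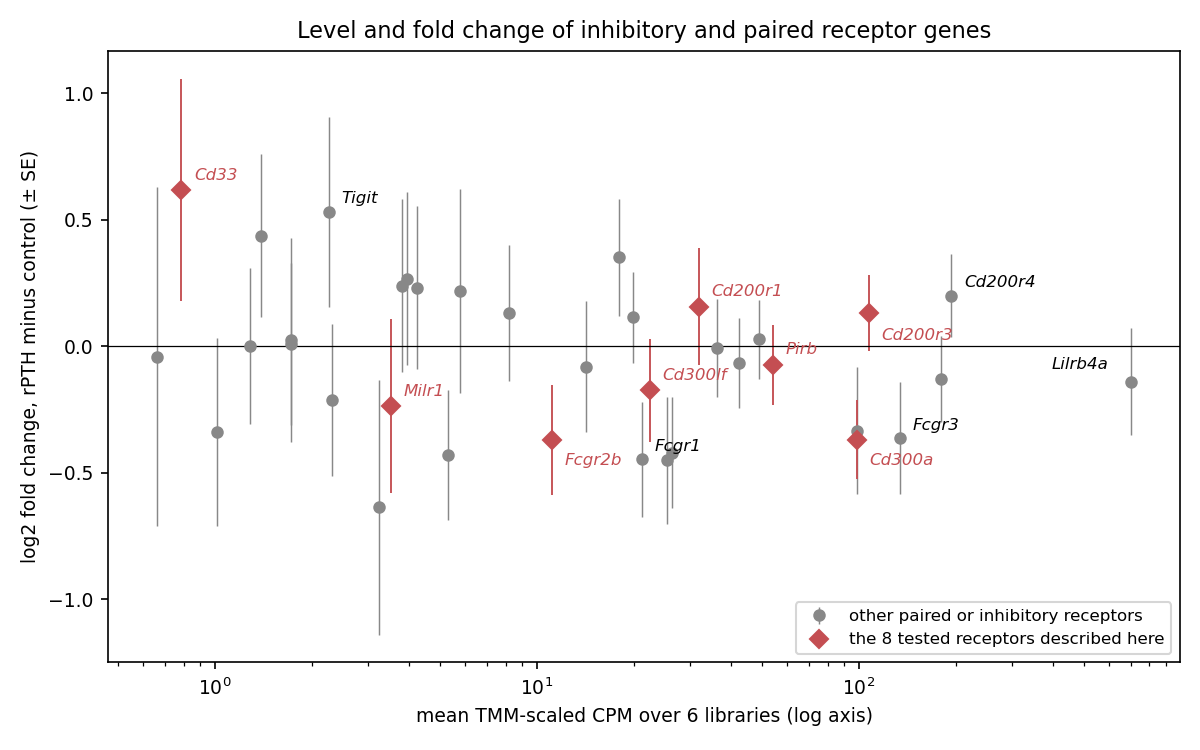
Mean level (log axis) against log2 fold change ± SE for the 8 tested receptors (diamonds) and 29 other inhibitory or paired receptors (circles), each point 1 gene. Lilrb4a and Cd200r4 are the most abundant, and the fold changes of Cd33 (0.62), Cd200r2 (-0.64) and Tigit (0.53) have wide errors at low levels.

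Downstream of the receptors, 16 of 18 phosphatase, kinase and adaptor genes were tested and 0 passed, with 0 at an unadjusted p under 0.05 and a median log2 fold change of -0.03 (7 above 0). DESeq2 and limma-voom also passed 0. The phosphatase genes of the ITIM pathway were all present: Ptpn6 had 95.5 ± 15.4 CPM in controls, against 76.6 ± 10.3 CPM with rPTH, Ptpn11 168 ± 35.1 and 210 ± 16 CPM, and Inpp5d 238 ± 60.4 and 229 ± 25.7 CPM (SD, n = 3 each). Ptpn11 did not overlap between the groups and was higher with rPTH (log2 fold change 0.32, edgeR adjusted p = 0.629). Its control 1 was low, at 129 CPM against 195 and 181 CPM in control 2 and 3. Dok3, Csk and Fyn were lower without overlap, Fyn by little (47.3 ± 1.04 and 45.7 ± 0.967 CPM, log2 fold change -0.05). Over all tested genes 8.35% did not overlap with rPTH higher and 8.45% with rPTH lower. Dok2, the adaptor of Cd200r1, had 30.8 ± 8.22 and 23.1 ± 2.65 CPM, and Dok3, an adaptor that dampens immune receptor signals, 56 ± 17.9 and 37.5 ± 3.47 CPM (log2 fold change -0.58, edgeR adjusted p = 0.619). Without control 1 the log2 fold change was -0.20 for Dok2, from -0.42, and -0.30 for Dok3. The inhibitory kinase Csk was the highest per length, at 289 ± 35.6 and 229 ± 17 CPM, and the adaptor Grb2 had 203 ± 31.3 and 184 ± 11.9 CPM. The Src family kinase Lyn, which phosphorylates ITIMs, had 125 ± 2.78 and 124 ± 12.9 CPM. With the length and GC trend removed by median transcript length the direction turned for Csk (0.0945, from -0.33) and Dok2 (0.18).

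The 3 activating adaptor chains did not pass. Tyrobp had 225, 112 and 103 CPM in control 1, 2 and 3, against 75.7, 110 and 88 CPM with rPTH. Fcer1g had 379, 192 and 182 CPM in controls, against 141, 199 and 175 CPM with rPTH, and Hcst 21.9, 8.97 and 8.21 CPM in controls, against 5.52, 8.43 and 6.86 CPM with rPTH. Control 1 stood far above every other library in all 3, and the groups overlapped through rPTH 2. The log2 fold changes were -0.68, -0.55 and -0.91 in that order, with edgeR adjusted p from 0.619 to 0.628 and 0 of 3 passing. Without control 1 they were -0.25, -0.13 and -0.32. With the length and GC trend removed they were -0.05, -0.01 and -0.24, and with a replicate block as well 0.017, 0.0466 and -0.16.

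Ligand genes were also read. Of 7 genes on the Pirb ligand list 6 were tested and 0 passed in edgeR, DESeq2 or limma-voom. Angptl2, a secreted ligand of Pirb, had 48.8, 41.7 and 38.5 CPM in control 1, 2 and 3, against 74.5, 54.9 and 51.6 CPM for rPTH 1, 2 and 3. All rPTH libraries lay above the controls (log2 fold change 0.49, interval 0.02 to 0.96, unadjusted p = 0.0432, edgeR adjusted p = 0.619), and rPTH 1, the highest, also had the most osteoblast and stromal marker transcripts, whose part in this difference was not tested. Angptl2 was the 1 of 6 tested genes of this list without overlap, and the 1 at an unadjusted p under 0.05 in edgeR. Over all tested genes 8.35% did not overlap with rPTH higher, and 7.87% were at that p. Without control 2, control 3, rPTH 1 or rPTH 2, no gene of this list had an unadjusted p under 0.05. Rtn4, the gene of the ligand Nogo, had 205 ± 15 and 251 ± 38.8 CPM. The MHC class I chains overlapped, with H2-K1 at 973 ± 415 and 695 ± 43.4 CPM, H2-D1 at 1240 ± 499 and 946 ± 56.7 CPM and B2m at 1558 ± 566 and 1300.2 ± 83.9 CPM, control 1 being highest in each. The sialic acid list held genes of synthesis, transport and transfer, and also sialidases, which remove sialic acid. All 14 genes were tested and 0 passed in any of the 3 tools. Over the whole list the median log2 fold change was -0.01, with 7 above 0. The sialyltransferase St3gal2 was higher with rPTH, without overlap (46.9 ± 3.35 and 57.8 ± 7.43 CPM, edgeR adjusted p = 0.628). It was the 1 of 14 without overlap, and over all tested genes 8.35% did not overlap with rPTH higher. St3gal1 had 9.12 ± 0.815 and 12.2 ± 3.86 CPM. The enzymes Nans and Cmas, which make and activate sialic acid, had 145 ± 54.7 and 107 ± 6.48 CPM and 114 ± 25.9 and 91.2 ± 8.13 CPM. Control 1 was highest in both, for Nans at 208 CPM against 117 and 111 CPM in control 2 and 3.

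Genes whose levels followed those of Cd300a and Fcgr2b most closely over the 6 libraries were found by the root-mean-square difference of centred log2 CPM among 11559 genes with a mean of at least 5 CPM. For Cd300a, the highest per kilobase of exon (though not of median transcript), these were Mpc1-ps (0.0508), Tcn2 (0.0573) and Gm10259 (0.0602), against a median of 0.327 over all candidates. For Fcgr2b, with the largest fold change among receptors at 1 CPM or more, they were Gm5530 (0.078), Gm12791 (0.0826) and Acss2 (0.0843), against a median of 0.393. These genes were taken as the smallest differences among all candidates, so values far below the median follow from that choice. Of the 6, Tcn2 (transcobalamin 2) and Acss2 (an acetyl-CoA synthetase) are protein-coding and 4 are processed pseudogenes, whose counts are uncertain.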

How the data were processed

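RNA of MC/9 cells was sequenced in 3 control and 3 rPTH libraries; per the labels' protocols, Trizol RNA went into Illumina TruSeq libraries. Per the submitters' processing notes, STAR 2.5.2b and Trimmomatic 0.36 were used, as were R 3.3.0 with DESeq2 1.12.4 and featureCounts of Subread 1.5.0p3; the notes name builds GRCm38.p5 and mm9 and give no role to any of these. The deposited raw counts per gene were used. The authors also deposited a size-factor normalized signal table and regularised log2 values, both read only to learn their unit, and a comparison table with a mean signal, log2 fold changes, a Wald score, p-values and adjusted p-values, quoted as such.

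Counts were tested with edgeR 4.0.16 (filterByExpr, minimum count 10; TMM; robust quasi-likelihood) in R 4.3.3, with Benjamini-Hochberg adjustment over 16696 of 49568 genes and a threshold of 0.05; DESeq2 1.42.0 and limma-voom (limma 3.58.1) were alternatives. Intervals are 95% intervals of the fit. Exon lengths came from GENCODE M21, which matched 47139 genes. The fit was tested on simulated data. The ITIM was searched by its usual consensus, in the coding frame, after the membrane window. Named genes were all members and, per list, the 3 of smallest p and the 2 of highest level per length, plus genes needed to state a count of 5 or fewer. Fcgr3, Siglecg, Cd200r2, Ptpn6, Inpp5d and Lyn fall outside this rule and were chosen after their values were seen. The members and lists were chosen with earlier results of these data known.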

Additional observations from a re-analysis of the deposited data

How the results depend on the processing

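No receptor passed an adjusted p of 0.05 in any of the 17 alternatives, and 0 genes of the lists did. Of all tested genes, DESeq2 passed 5 (Pde8a, Olfr56, Thbs2, Gm11694 and Gm7079, named after their values were seen) and each other setting passed 0. Genes at an unadjusted p under 0.05 numbered 1314 in edgeR, 863 in limma-voom, 2377 without a low-count filter, 620 among protein-coding genes, 835 with the length and GC trend removed, and 272 to 2165 with single libraries left out. The lowest was without rPTH 1 and the highest without control 1. Of those genes 25.2% were higher with rPTH, 66.9% among protein-coding genes alone.

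Receptors at an unadjusted p under 0.05 were 0 of 8 in edgeR, 1 in DESeq2, limma-voom, the filter of at least 1 CPM in 3 libraries and protein-coding genes alone (Cd300a in each), 1 without a low-count filter (Cd200, with 4 counts in all), 2 with the length and GC trend removed (Cd300a and Fcgr2b), 1 with that trend by median transcript length, and 0 to 1 with single libraries left out. Over all tested genes the share at that p was 7.87% in edgeR, 11% in DESeq2 and 5.17% in limma-voom. It was 7.29% with the 1 CPM filter, 5.05% among protein-coding genes and 6.22% without a low-count filter. With the length and GC trend removed it was 5%, and 6.99% by median transcript length. With single libraries left out it ran from 1.61% to 12.4%. Receptors without overlap were 2, but 1 with DESeq2 size factors or no low-count filter, 0 with library totals, and 1 to 4 with single libraries left out. Over all tested genes the share without overlap was 16.8%, and 17.6%, 12.2%, 19.2% and 20 to 34.3% in those settings; 4 receptors were counted without rPTH 1 (all genes 20%) and without rPTH 3 (23.3%). Signs reversed for Cd200r3 with the length and GC trend removed (-0.16, and -0.13 with a replicate block), for Cd200r1 when single libraries were left out (-0.0499 to 0.44), and for Pirb with library totals (0.0435), no low-count filter (0.0478) and single libraries left out (-0.17 to 0.0516). With the trend by median transcript length they reversed for Pilrb2 (0.0426), Pilrb1 (0.0323), Csk (0.0945) and Dok2 (0.18), and with trend and block for Tyrobp (0.017) and Fcer1g (0.0466). The cause was not tested. Scaling by library totals moved the median of all genes from -0.09 to 0.04 on the log2 scale.

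The labels number both groups 1 to 3 without saying what a number marks. Same-numbered libraries did not deviate together (correlations -0.131, -0.323 and 0.142), so the numbers were not taken as pairs. With a replicate block 525 genes (3.14%) had an unadjusted p under 0.05, and 438 (2.62%) with the length and GC trend removed as well. In either setting 0 of 8 receptors did, and 0 passed.

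Counts of 0 to 3 (Cd200, Siglece) and of 6 to 41 (Cd33) limit what depth can show.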
